A study of Homo sapiens with 5 samples.

Results

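Subunits, inhibitors and feedback genes of the transcription factor NF-kB were followed in human colorectal cancer cells growing in zebrafish. The 10 genes were taken by symbol (NFKBIA, NFKBIE, NFKB1, NFKB2, RELA, RELB, BCL3, TNFAIP3, BIRC3 and TNIP1), and all 10 were among the 15258 genes listed for all 5 plates, of 21190 listed for any. SW480 cells, an established line from a primary colorectal tumor, carried GFP from a lentivirus and were injected into zebrafish embryos at 2 days of age. Tumors were dissected at 1 day post injection (dpi; libraries 6, 7 and 8) or at 4 dpi (libraries 10 and 11), about 100 tumors were pooled per collection, and live DAPI-negative cells were sorted one per well into 384-well plates for SORT-seq, which counts unique molecular identifiers (UMIs) at the 3′ end of transcripts. The collection medium held the ROCK inhibitor Y-27632 at both time points, and tumors were dissociated with liberase. Cells were kept where over 2000 genes had a UMI and mitochondrial transcripts made up under 25% of the UMIs, which left 826 cells, 533 at 1 dpi and 293 at 4 dpi.

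NF-kB dimers are held in the cytoplasm by IkB proteins until a receptor signal triggers IkB degradation. Freed dimers switch on many genes, among them those for IkB proteins, for several of the subunits and for the ubiquitin-editing enzyme A20, and these products feed back on the pathway. In intestinal epithelium the pathway is known for its part in inflammation, in survival and in the recruitment of immune cells.

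The libraries held 142 to 228 cells each, with 3789008 to 7502022 UMIs in the summed cells and a median of 18817 to 36189.5 UMIs per cell. Levels of single genes are UMIs per 1000000 UMIs of the summed cells of a library or class of cells (CPM). Their totals were scaled by edgeR's TMM factors over the genes that passed its count filter. Sums over gene lists are in CPM without that scaling. Because each molecule gives 1 tag, levels were not divided by transcript length. The 7 epithelial markers summed to 4685 to 5747 CPM in every library, against 7.65 to 24.0 CPM for 8 leukocyte markers. Of these PTPRC had at most 3 UMIs in the 4 libraries that list it, and MPO was listed for no library. Host leukocytes are zebrafish cells and reads were mapped to human transcripts, so low values cannot show that no host leukocyte was sorted. Plates were the replicates. The labels do not tell whether plates collected on one day hold cells of different tumor pools. The p-values of the time comparison thus measure the spread between plates, which may be technical. For the splits of cells, with library as a block, they measure how a difference within plates varies from plate to plate. An exact permutation of 3 against 2 plates cannot go below p = 0.1. All plates use one set of 384 well barcodes, so a shared barcode is not a shared cell, and doublets were not called.

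The promoter sequences are shown first because 7 of the 8 genes matched in RefSeq carry the NF-kB binding motif, including 1 gene, TNIP1, that did not pass the test between time points. RefSeq (GRCh38.p14) gave 13 windows for 8 of the 10 genes, each from 250 bases before to 50 after a transcription start, and NFKBIE and RELB were not matched. Both strands were searched for the kappaB consensus, and 8 of the 13 windows held it, against 11.3% of 35116 windows over all genes. The stricter form GGGNNNTTCC, which overlaps the consensus, was in 7 of the 13 and in 6.52% of all windows. A match is a string of letters, not a bound site. One window is printed for each of 6 genes, 5′ to 3′ on the strand of the gene, with bases matching the consensus on either strand in capitals.
NFKBIA, chr14:35404700-35404999, minus strand: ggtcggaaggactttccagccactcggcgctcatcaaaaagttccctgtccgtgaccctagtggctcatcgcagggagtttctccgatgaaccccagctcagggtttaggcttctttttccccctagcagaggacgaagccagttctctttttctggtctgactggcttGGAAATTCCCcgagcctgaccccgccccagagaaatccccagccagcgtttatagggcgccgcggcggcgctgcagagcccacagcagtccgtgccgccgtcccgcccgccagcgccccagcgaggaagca
TNFAIP3, chr6:137867009-137867308, plus strand: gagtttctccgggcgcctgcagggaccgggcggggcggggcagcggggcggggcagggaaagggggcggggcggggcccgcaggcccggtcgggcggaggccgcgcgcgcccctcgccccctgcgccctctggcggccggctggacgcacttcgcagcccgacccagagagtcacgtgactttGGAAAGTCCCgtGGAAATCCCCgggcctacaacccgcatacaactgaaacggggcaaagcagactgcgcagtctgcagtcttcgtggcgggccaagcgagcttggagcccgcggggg
BIRC3, chr11:102317234-102317533, plus strand: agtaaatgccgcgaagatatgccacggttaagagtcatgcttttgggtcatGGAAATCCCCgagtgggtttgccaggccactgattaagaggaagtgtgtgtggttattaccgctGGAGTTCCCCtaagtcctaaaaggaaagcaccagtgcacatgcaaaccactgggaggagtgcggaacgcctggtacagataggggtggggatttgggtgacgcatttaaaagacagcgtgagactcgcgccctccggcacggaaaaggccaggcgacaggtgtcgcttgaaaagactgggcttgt
BCL3, chr19:44748458-44748757, plus strand: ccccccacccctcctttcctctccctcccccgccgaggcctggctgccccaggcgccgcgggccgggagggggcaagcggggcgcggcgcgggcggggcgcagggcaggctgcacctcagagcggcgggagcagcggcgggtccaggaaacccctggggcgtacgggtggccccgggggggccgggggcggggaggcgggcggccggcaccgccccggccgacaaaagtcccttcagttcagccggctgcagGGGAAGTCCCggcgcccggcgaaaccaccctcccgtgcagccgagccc
TNIP1, chr5:151080985-151081284, minus strand: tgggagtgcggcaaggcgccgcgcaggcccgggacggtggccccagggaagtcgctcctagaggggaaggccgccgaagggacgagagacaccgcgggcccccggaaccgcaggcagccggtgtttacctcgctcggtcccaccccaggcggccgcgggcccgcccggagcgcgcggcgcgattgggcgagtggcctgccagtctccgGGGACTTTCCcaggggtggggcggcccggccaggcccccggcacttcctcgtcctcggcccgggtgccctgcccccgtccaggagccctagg
RELA, chr11:65662867-65663166, minus strand: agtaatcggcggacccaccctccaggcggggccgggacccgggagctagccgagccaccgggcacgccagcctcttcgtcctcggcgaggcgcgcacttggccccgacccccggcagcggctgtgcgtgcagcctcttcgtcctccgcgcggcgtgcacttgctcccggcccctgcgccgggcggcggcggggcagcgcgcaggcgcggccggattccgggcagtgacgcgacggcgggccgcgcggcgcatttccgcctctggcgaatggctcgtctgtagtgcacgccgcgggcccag

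The match of NFKBIA (GGGAATTTCC, on the opposite strand) lay 81 to 72 bases before the start. TNFAIP3 had 2 matches close together (GGGACTTTCC and GGGGATTTCC, both on the opposite strand), starting 67 and 55 bases before the start. BIRC3 shared the string GGGGATTTCC with TNFAIP3, 199 bases before its start, and had a further match 135 bases before it. The only match of BCL3 read on the gene strand as GGGAAGTCCC and began 2 bases after the start. TNIP1 carried GGGACTTTCC, the same string as TNFAIP3, starting 42 bases before the start. Neither of the 2 RELA windows held a match. NFKB1 held GGGAATTTCC, the string of NFKBIA, in 1 of its windows, and NFKB2 held matches in windows 2 and 3 of its 3.

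To ask which of the genes differed between early tumors and the tumors left at 4 dpi, UMIs were summed per plate and compared with edgeR's quasi-likelihood test over 12638 genes with Benjamini-Hochberg adjustment. Of the 10 genes, 8 fell, none rose, and RELA and TNIP1 did not pass the test. The background was 14.2% of all tested genes called lower, and the median log2 difference was -0.97 over the 10 genes against 0.00 over all genes. In TMM-scaled CPM both 4 dpi libraries were below every 1 dpi library for 9 of the 10 genes, as was the case for 27.6% of all genes tested. For NFKBIA and TNIP1 this rested on the scaling, since without it library 6 was slightly below library 11. The fall was largest for BCL3 and BIRC3. In summed cells, fewer cells using a gene and less RNA per cell cannot be told apart.

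**Figure D1:**
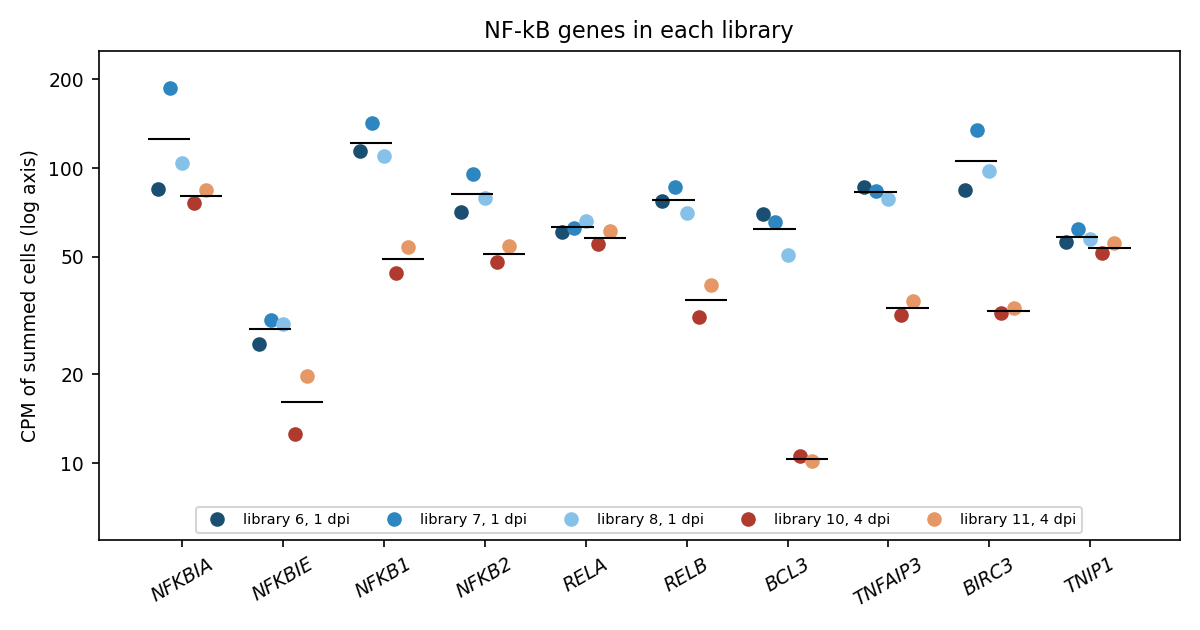
Level of each gene in the summed cells of each library, in CPM on a log axis, with 1 point per library (blue, 1 dpi; red and orange, 4 dpi) and a bar at the mean of each time point. BCL3 lay between 50.6 and 69.8 at 1 dpi and at 10.2 and 10.6 at 4 dpi, and the points of RELA overlapped.

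Transcripts of the inhibitors NFKBIA and NFKBIE, whose products retain NF-kB in the cytoplasm, were lower at 4 dpi. NFKBIA (IkB-alpha, chr14:35401079-35404749) was at 84.8, 187 and 104 CPM in libraries 6, 7 and 8 and at 76.3 and 84.0 CPM in libraries 10 and 11. Library 7 stood far above the rest. Library 6 was barely above library 11, an order that turned without TMM scaling (634 of 7502022 UMIs against 323 of 3789008). The log2 difference was -0.64 (SE 0.23, n = 3 and 2, edgeR adjusted p = 0.0499), and it missed the threshold without library 7 (-0.23, adjusted p = 0.241), without library 10 (-0.58, adjusted p = 0.114), without library 11 (-0.71, adjusted p = 0.0666), in cells thinned to 5000 UMIs (-0.62, adjusted p = 0.069), with flow cell as a term (-0.60, adjusted p = 0.057) and in DESeq2 (adjusted p = 0.345). By the file names libraries 6, 7 and 10 ran on one flow cell and libraries 8 and 11 on another, so each flow cell held both time points. NFKBIE (IkB-epsilon, chr6:44258166-44265788) was at 25.3, 30.6 and 29.6 CPM at 1 dpi and at 12.6 and 19.8 CPM at 4 dpi. The groups did not overlap, and the log2 difference was -0.81 (SE 0.20, edgeR adjusted p = 0.00649), which was -0.52 with an adjusted p of 0.0948 without library 10.

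Among the subunits, those made as precursors and RELB fell, and RELA did not pass the test. NFKB1 (p105, processed to p50; chr4:102501330-102617302) was at 114, 142 and 110 CPM at 1 dpi and at 44.1 and 54.1 CPM at 4 dpi. Every 1 dpi library was above both 4 dpi libraries, with a log2 difference of -1.31 (SE 0.14, edgeR adjusted p = 9.5e-06), that is 40.2% of the 1 dpi level. NFKB2 (p100, processed to p52 in the alternative pathway; chr10:102394110-102402524) was at 70.9, 95.5 and 79.2 CPM against 48.1 and 54.4 CPM, without overlap, and fell by 0.67 on the log2 scale (SE 0.14, edgeR adjusted p = 0.00224). In thinned cells the difference of NFKB2 was -0.51 and missed the threshold (edgeR adjusted p = 0.102). RELB (the partner of p52, chr19:45001461-45038192) was at 77.3, 86.2 and 70.6 CPM at 1 dpi and at 31.2 and 40.3 CPM at 4 dpi. Its groups were also separate, with a log2 difference of -1.13 (SE 0.14, edgeR adjusted p = 4.48e-05). RELA (p65, which carries the main activation domain; chr11:65653599-65663090) was at 60.9, 62.7 and 66.0 CPM at 1 dpi and at 55.1 and 61.1 CPM at 4 dpi. Library 11 lay within the range of the 1 dpi libraries, and the log2 difference was -0.12 (SE 0.12, edgeR adjusted p = 0.484).

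BCL3 had the largest difference of the 10 genes. BCL3 (chr19:44747705-44760044) encodes a nuclear IkB-like protein that works as a cofactor of p50 and p52 dimers. It was at 69.8, 65.7 and 50.6 CPM in libraries 6, 7 and 8, from 522, 346 and 241 UMIs, and at 10.6 and 10.2 CPM in libraries 10 and 11, from 42 and 39 UMIs. The 4 dpi libraries were close to each other and well below every 1 dpi library, and the log2 difference was -2.59 (SE 0.19, edgeR adjusted p = 2.15e-07), or 16.6% of the 1 dpi level.

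The genes whose products curb or follow the signal divided in the same manner as the subunits. TNFAIP3 (A20, which edits ubiquitin chains to stop signalling; chr6:137867214-137883314) was at 86.0, 83.9 and 78.6 CPM at 1 dpi and at 31.7 and 35.4 CPM at 4 dpi. Within each time point the libraries were tight and between them they were apart, with a log2 difference of -1.31 (SE 0.13, edgeR adjusted p = 3.17e-06). TNIP1 (ABIN-1, a partner of A20; chr5:151029945-151093577) was at 56.1, 62.3 and 57.6 CPM against 51.6 and 55.7 CPM. The groups of TNIP1 just failed to overlap in TMM-scaled CPM and overlapped without the scaling (419 of 7502022 UMIs in library 6, 214 of 3789008 in library 11). Its log2 difference was -0.13 (SE 0.12, edgeR adjusted p = 0.459). BIRC3 (cIAP2, a ubiquitin ligase at TNF receptors; chr11:102317484-102339403) was at 84.3, 135 and 97.7 CPM at 1 dpi and at 32.2 and 33.6 CPM at 4 dpi. The spread of BIRC3 was wide at 1 dpi and narrow at 4 dpi, without overlap, and its log2 difference was -1.68 (SE 0.18, edgeR adjusted p = 9.79e-06).

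Depth per cell differed between plates, so shares of cells with a UMI were taken after thinning each cell to 5000 UMIs, which kept 526 cells at 1 dpi and 289 at 4 dpi and left out 7 and 4. In the sums of thinned cells 6 of the 10 genes were called lower at 4 dpi, against 5.94% of all genes. BCL3 was then seen in 16.8%, 17.9% and 16.9% of cells in libraries 6, 7 and 8 and in 7.69% and 4.40% in libraries 10 and 11. Unthinned, these shares were 39.5%, 52.1% and 33.1% against 18.9% and 14.3%. BIRC3 was seen in 28.8%, 34.3% and 27.5% of thinned cells at 1 dpi and in 10.0% and 14.5% at 4 dpi, and unthinned in 50.9%, 55.6% and 51.5% against 34.8% and 31.7%. TNFAIP3 was seen in 21.7%, 22.9% and 23.8% of thinned cells against 10.8% and 11.3%, and unthinned in 46.9%, 46.5% and 46.6% against 26.5% and 19.9%. For all 3 genes every 1 dpi library had the larger share, thinned or not. In thinned cells this also held for NFKBIE, NFKB1, NFKB2 and RELB, and the shares of NFKBIA and RELA overlapped. TNIP1 went the other way in thinned cells, at 20.4%, 19.3% and 15.6% at 1 dpi and at 22.3% and 30.2% at 4 dpi. How many of all genes had separate shares was not computed. The exact 95% binomial intervals of the thinned shares, which cover counting error only, ran from 11.4% to 25.2% at 1 dpi and from 1.79% to 13.7% at 4 dpi for BCL3. They ran from 20.7% to 42.8% and from 5.43% to 20.9% for BIRC3 and from 16.2% to 31.1% and from 6.01% to 17.4% for TNFAIP3, so that intervals of single libraries met across time points. A thinned cell had a UMI of 2.28, 2.52 and 2.31 of the 10 genes on average at 1 dpi and of 1.36 and 1.74 at 4 dpi. Cells with 5 or more of the 10 genes made up 16.4%, 19.3% and 17.5% of thinned cells at 1 dpi and 4.62% and 3.77% at 4 dpi.

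The remaining genes of the pathway were described from lists set by role. REL, a further subunit of NF-kB, fell by 0.62 on the log2 scale (SE 0.17, edgeR adjusted p = 0.0118). NFKBIB (-0.16, edgeR adjusted p = 0.302), NFKBID and NFKBIZ did not pass the test. The counts by role below stand beside 14.2% of all tested genes called lower and 13.4% called higher. Of 14 receptors that lead to NF-kB, 9 were tested and 1 fell, TNFRSF21 (death receptor 6, log2 difference -0.59, SE 0.14). Of 24 adaptors and kinases, 23 were tested, 8 fell and 1 rose. TRAF6, a ubiquitin ligase used by interleukin-1 and Toll-like receptors, had a log2 difference of -0.93 (SE 0.15). MAP3K14, the kinase NIK of the alternative pathway, had one of -0.85 (SE 0.22), and RIPK1, the TNF receptor adaptor kinase, one of -0.66 (SE 0.20). TRAF5, an adaptor of TNF receptors, rose by 0.90 (SE 0.11). Of 8 other ubiquitin-editing regulators 7 were tested, N4BP1 fell (-0.47, SE 0.15) and TAX1BP1, an adaptor of A20, rose (0.26, SE 0.09). The shares of receptors and of these regulators called lower were near that of all genes.

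Among 34 genes known to be induced by NF-kB in epithelial cells, 23 were tested, 5 fell and 2 rose, with a median log2 difference of -0.37. Over all genes 14.2% were called lower and 13.4% higher, with a median log2 difference of 0.00. Whether the list differs from all genes was not tested. PLAU, the urokinase gene, had a log2 difference of -1.96 (SE 0.46), CD83, a surface protein of activated cells, one of -1.55 (SE 0.28), and IER3, an early survival gene, one of -0.96 (SE 0.12). The chemokine CXCL2 (1.09, SE 0.33) and the autophagy receptor SQSTM1 (0.43, SE 0.09) rose, CXCL2 with overlapping libraries. The chemokine CXCL8 was at 243 CPM in library 7 and between 25.6 and 96.7 CPM in the other libraries, and its log2 difference was -0.15 (edgeR adjusted p = 0.875). Library 7 was thus the highest library for CXCL8 as it was for NFKBIA.

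Some other measures moved with time beside the NF-kB genes. Cells with a UMI of HES5, a target of Notch signalling, were 25.9%, 33.8% and 26.4% of the cells at 1 dpi and 6.82% and 5.59% at 4 dpi, with exact 95% intervals of 19.8% to 42.2% and 2.59% to 12.5%. The 13 immediate early genes, which respond within minutes to growth factors and to handling stress, summed to 3556, 5271 and 3850 CPM at 1 dpi and to 2989 and 3161 CPM at 4 dpi. They did not move together. By edgeR 5 fell, ATF3 rose (0.67, SE 0.11) and 7 did not pass the test, against 14.2% of all genes called lower and 13.4% higher. The 8 leukocyte markers summed to 21.3, 24.0 and 17.6 CPM at 1 dpi and to 9.34 and 7.65 CPM at 4 dpi. Of the 2 that could be tested ITGAM fell (-2.53, SE 0.37), from 81, 65 and 38 UMIs to 7 and 7, and the part of these markers in the results was not tested. The 10 mitosis genes all rose, and their sum was 427 to 536 CPM at 1 dpi and 1116 and 1249 CPM at 4 dpi. Among cells with no HES5 UMI, 3 of the 10 genes still fell, BCL3 (-1.38, SE 0.23), NFKB1 (-1.05, SE 0.14) and BIRC3 (-0.77, SE 0.15), against 7.57% of all genes. In the cells below their library's median share of immediate early UMIs, 4 of the 10 fell, TNFAIP3 (-1.81, SE 0.40), RELB (-1.36, SE 0.25), NFKB1 (-0.97, SE 0.17) and BIRC3 (-0.85, SE 0.26), against 9.86% of all genes. The threshold was narrowly missed there by BCL3 (-1.09, edgeR adjusted p = 0.0504), NFKB2 (-0.67, edgeR adjusted p = 0.0506) and NFKBIE (-1.06, edgeR adjusted p = 0.0559), of which NFKB2 and NFKBIE differed by no less than in all cells. In the cells above it 8 of the 10 fell, against 12.6% of all genes. NFKB1 and BIRC3 thus passed the test in all of these subsets. The difference of BCL3 was larger than that of BIRC3 in each subset and missed the threshold only below the median share. The 8 genes called in all cells were below 0 in each subset.

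**Figure D2:**
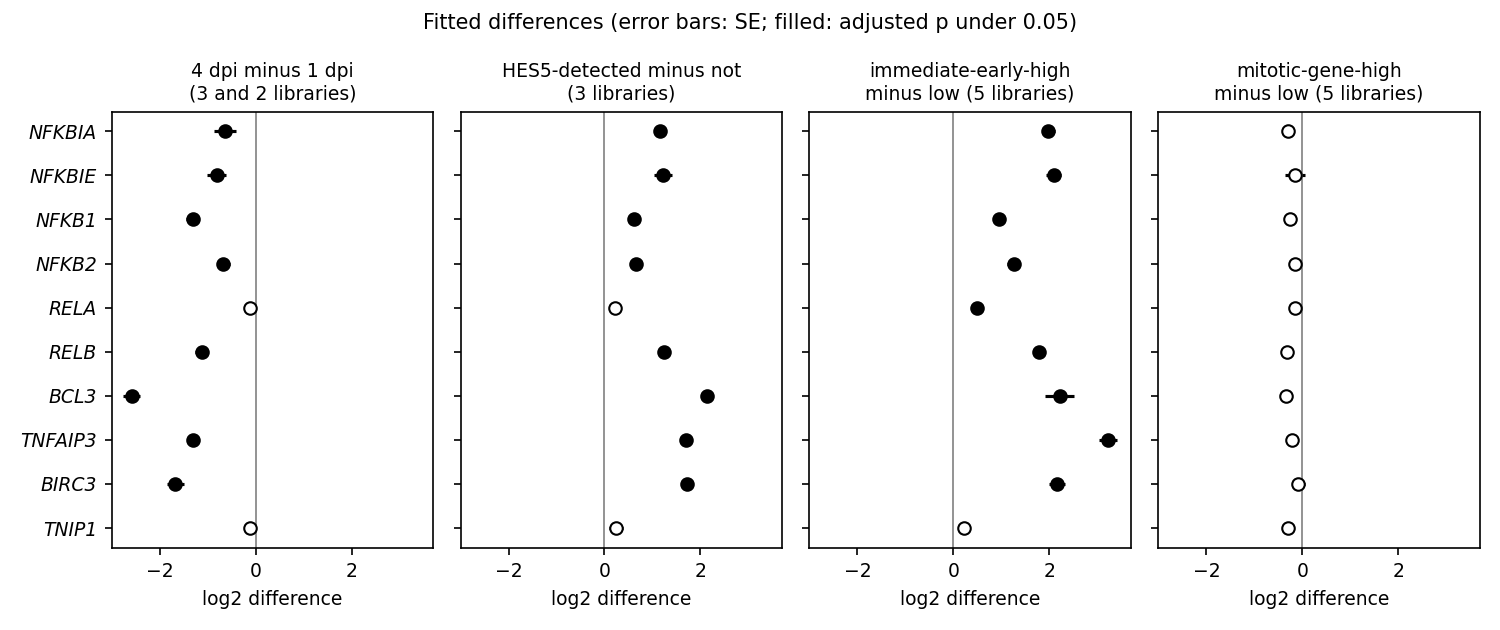
Fitted log2 difference of each gene in the 4 comparisons, with bars of 1 standard error and filled points for an edgeR adjusted p under 0.05. RELA and TNIP1 lay near 0 in the time and HES5 panels, TNFAIP3 reached 3.23 in the immediate early panel, and no point of the mitosis panel is filled.

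The second question was whether NF-kB genes differed between cells with and without Notch target signal at 1 dpi. Libraries 6, 7 and 8 held 59, 48 and 43 cells with a HES5 UMI and 169, 94 and 120 without, and the sums were compared with library as a block over 11545 genes. Of the 10 genes 8 were higher in HES5-detected cells and none lower, against 17.6% of all genes called higher and 16.3% called lower. BCL3 was at 137, 128 and 93.5 CPM in HES5-detected cells and at 32.9, 27.1 and 21.4 CPM in the others, a log2 difference of 2.13 (SE 0.12, edgeR adjusted p = 4.74e-12). BIRC3 was at 143, 258 and 161 CPM against 52.3, 58.8 and 54.5 CPM (log2 1.72, SE 0.12), and TNFAIP3 at 145, 152 and 138 CPM against 54.0, 41.7 and 38.1 CPM (log2 1.69, SE 0.12). For these 3 genes the lowest HES5-detected value was above the highest of the others. RELB, NFKBIE and NFKBIA were 2.35-fold, 2.33-fold and 2.24-fold higher, and NFKB2 and NFKB1 1.58-fold and 1.52-fold. RELA (log2 0.23, SE 0.13, edgeR adjusted p = 0.167) and TNIP1 (0.23, SE 0.14, edgeR adjusted p = 0.217) did not pass the test, and TNIP1 was higher in 2 of 3 libraries.

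HES5-detected cells differed in other ways. Their median depth was 43387, 40230 and 42044 UMIs, against 28306, 34758.5 and 20990.5 UMIs, and their immediate early genes summed to 6929, 7943 and 6350 CPM, against 1860, 3682 and 2270 CPM. Their median mitochondrial share was 9.60%, 10.2% and 9.94%, against 13.7%, 11.6% and 11.3%, and the part of that share in the result was not tested. With cells thinned to 5000 UMIs before the split, 6 of the 10 genes were higher, against 5.73% of all genes. NFKB2 (0.72, edgeR adjusted p = 0.0574) and RELB (0.42, edgeR adjusted p = 0.397) then missed the threshold, NFKB2 with no smaller difference. Among cells above their library's median share of immediate early UMIs, BCL3 (1.45, SE 0.17), BIRC3 (0.85, SE 0.16), TNFAIP3 (0.78, SE 0.16) and RELB (0.72, SE 0.18) were higher in HES5-detected cells, 4 of the 10 against 2.21% of all genes. Among cells below it, which included 7, 14 and 7 HES5-detected cells, none passed edgeR's test, against 0.0203% of all genes, and 1, BIRC3 (1.14), had an unadjusted p under 0.05.

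The third comparison split each library at its median share of immediate early UMIs, a cut along a range and not a class of cells, with 42 of 826 cells within 10% of their library's median. None of the 10 genes is among the 13 used for the split. In cells with the higher share 9 of the 10 genes were higher and none lower, against 22.4% of 11891 genes called higher and 22.1% called lower. TNFAIP3 was at 142, 146, 133, 52.0 and 69.1 CPM in the high cells of libraries 6, 7, 8, 10 and 11 and at 14.9, 21.4, 13.3, 6.66 and 2.59 CPM in the low cells. Every library showed the difference, which was 3.23 on the log2 scale (SE 0.19, edgeR adjusted p = 7.87e-07) and the largest of the 10. BCL3 (2.21, SE 0.30), BIRC3 (2.16, SE 0.17), NFKBIE (2.09, SE 0.16), NFKBIA (1.98, SE 0.14) and RELB (1.79, SE 0.13) followed, then NFKB2 (1.25, SE 0.14) and NFKB1 (0.96, SE 0.12). RELA was at 66.7, 74.7, 76.8, 62.5 and 74.4 CPM in high cells and at 53.7, 50.5, 52.9, 45.5 and 48.6 CPM in low cells. This smaller difference was seen in 5 of 5 libraries and passed the test (0.49, SE 0.11, edgeR adjusted p = 0.00321). TNIP1 was also higher in 5 of 5 libraries but by 0.21 (SE 0.11, edgeR adjusted p = 0.151). The high cells had a lower median mitochondrial share than the low cells in each library, 8.60% to 10.9% against 11.7% to 16.0%, and its part in the result was not tested. Among 1 dpi cells with no HES5 UMI, 9 of the 10 genes were again higher, against 18.1% of all genes, here with TNIP1 (0.41, SE 0.15) and without RELA (0.24, SE 0.15).

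**Figure D3:**
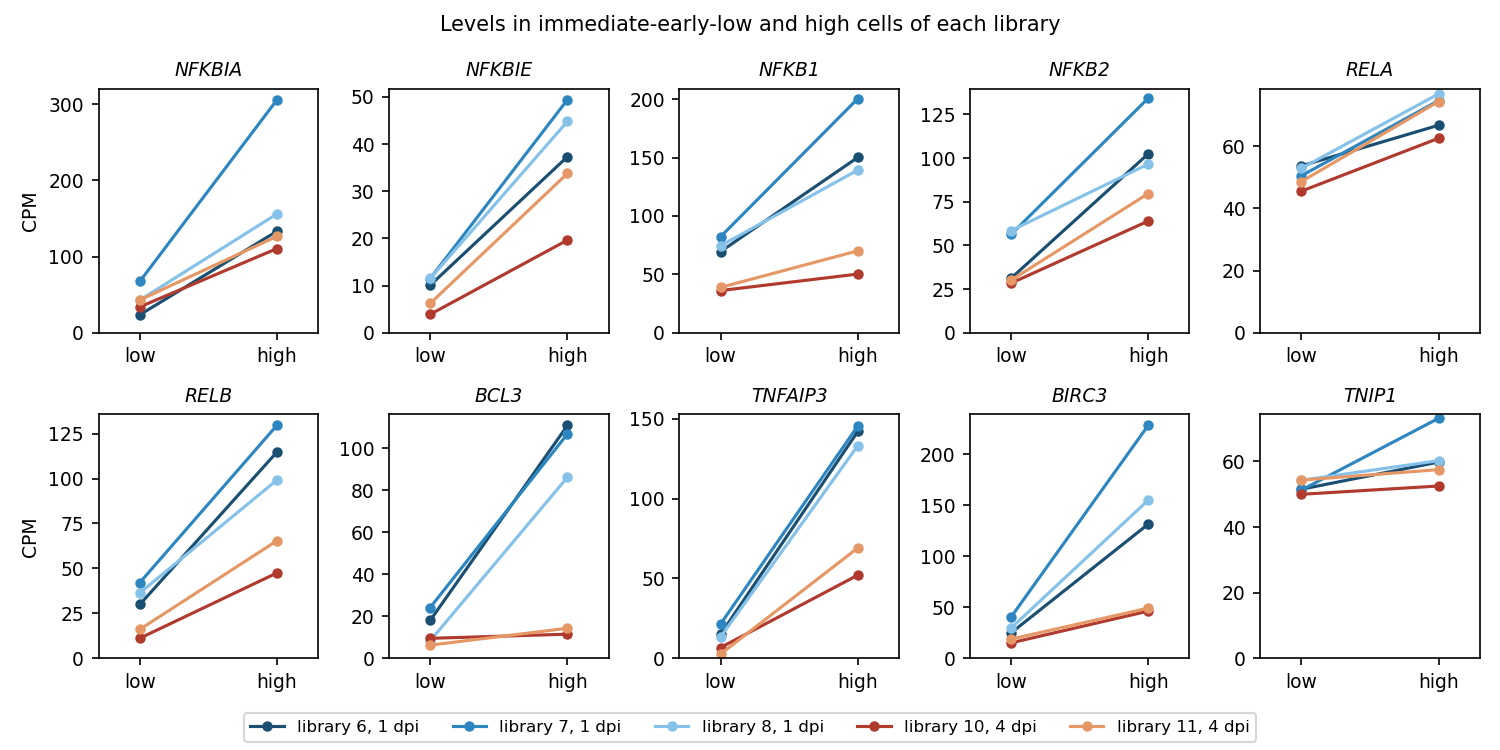
Level of each gene, in CPM on axes that start at 0, in cells with a low and a high share of immediate early UMIs, with 1 line per library. The 1 dpi lines of BCL3 rise to between 86.1 and 111, and its 4 dpi lines end at 11.4 and 14.2.

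The size of this difference was then compared between time points by an interaction term, which is a test of the difference itself and was added after the data were seen. Of the 10 genes 2 passed, BCL3 and BIRC3, against 12.4% of all genes in either direction, 4.91% lower and 7.49% higher. BCL3 was at 111, 107 and 86.1 CPM in the high cells and at 18.0, 24.1 and 8.28 CPM in the low cells at 1 dpi. At 4 dpi it was at 11.4 and 14.2 CPM in the high cells and at 9.44 and 6.21 CPM in the low cells. The log2 difference of BCL3 was thus 2.60 (SE 0.16) at 1 dpi and 0.71 (SE 0.40) at 4 dpi, and the interaction was -1.89 (SE 0.44, edgeR adjusted p = 0.0034). BIRC3 had 2.45 (SE 0.11) and 1.50 (SE 0.25), with an interaction of -0.94 (SE 0.26, edgeR adjusted p = 0.0137). TNFAIP3 had 3.10 (SE 0.13) and 3.71 (SE 0.32), and its interaction did not pass the test (0.63, SE 0.41, edgeR adjusted p = 0.354).

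Between cells with a higher and a lower share of mitosis genes, split in the same way with 55 of 826 cells near the cut, none of the 10 genes passed edgeR's test, against 12.8% of 11793 genes in either direction, 7.27% higher and 5.51% lower. All 10 were lower in the high cells by 0.09 to 0.34 on the log2 scale, with signs that turned for 3 genes in thinned cells (NFKBIA, NFKBIE and NFKB2) and for 3 at 4 dpi alone (NFKB2, TNFAIP3 and BIRC3). Of the 10 genes 5 had an unadjusted edgeR p under 0.05, against 1534 of the 11793 genes lower and 1491 higher. The median log2 difference was -0.23 over the 10 genes and -0.02 over all genes, and DESeq2 called none of the 10. NFKBIA had the smallest adjusted p (log2 -0.29, SE 0.10, edgeR adjusted p = 0.0595). The high cells were deeper in each library, with medians of 22557 to 38457 UMIs against 16106 to 34409 UMIs. Their median mitochondrial share was 15.3% and 14.7% at 4 dpi, against 9.87% and 9.89% in the low cells. At 1 dpi it was 12.1%, 11.2% and 11.5%, against 13.4%, 11.5% and 9.59%. The part of this share in the result was not tested. Calls appeared when libraries were left out. Without library 7 they were NFKB1 (-0.33) and RELB (-0.41), against 547 of 11574 genes called lower. Without library 11 they were NFKBIA (-0.35) and TNIP1 (-0.39), against 458 of 11645 genes called lower.

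The last question was whether single cells that held one of the genes also held the others. Pearson correlations of log-normalised counts were taken across the cells of each library and are descriptions, since all points of a library share its depth range and preparation. The median over the 45 pairs, each at its median library, was 0.388, against 0.0145 to 0.0274 for all pairs of 9223 genes seen in at least 20% of cells. Of the 45 pairs 40 were above 0 in every library, a share that was not computed over all pairs of genes. The highest pair was NFKBIA with TNFAIP3, at 0.671, 0.754, 0.681, 0.563 and 0.552 in libraries 6, 7, 8, 10 and 11. RELB with TNFAIP3 (median 0.636), BCL3 with TNFAIP3 (0.626), NFKB2 with RELB (0.618) and TNFAIP3 with BIRC3 (0.612) came next. TNFAIP3, which curbs the signal, was in 4 of these 5 pairs.

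RELA and TNIP1 were set apart from the other 8 genes after these values were seen. The 28 pairs without them had a median r of 0.480 (0.345 to 0.671), and the 17 pairs with them one of 0.215 (0.144 to 0.371). After thinning each cell to 5000 UMIs these medians were 0.270 and 0.0645. The median over the 45 pairs was 0.461, 0.487 and 0.400 in the 1 dpi libraries and 0.235 and 0.273 in the 4 dpi libraries, where the genes also had fewer UMIs. BCL3 with TNFAIP3 was at 0.629, 0.627 and 0.628 at 1 dpi and at 0.0751 and 0.312 at 4 dpi. NFKB2 with RELB, the pair of the alternative pathway, was at 0.661, 0.598 and 0.618 at 1 dpi and at 0.639 and 0.502 at 4 dpi, so that this pair was nearly as high at the later time point. That was not particular to this pair. RELB with TNFAIP3 was at 0.636, 0.741 and 0.610 at 1 dpi and at 0.664 and 0.544 at 4 dpi.

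**Figure D4:**
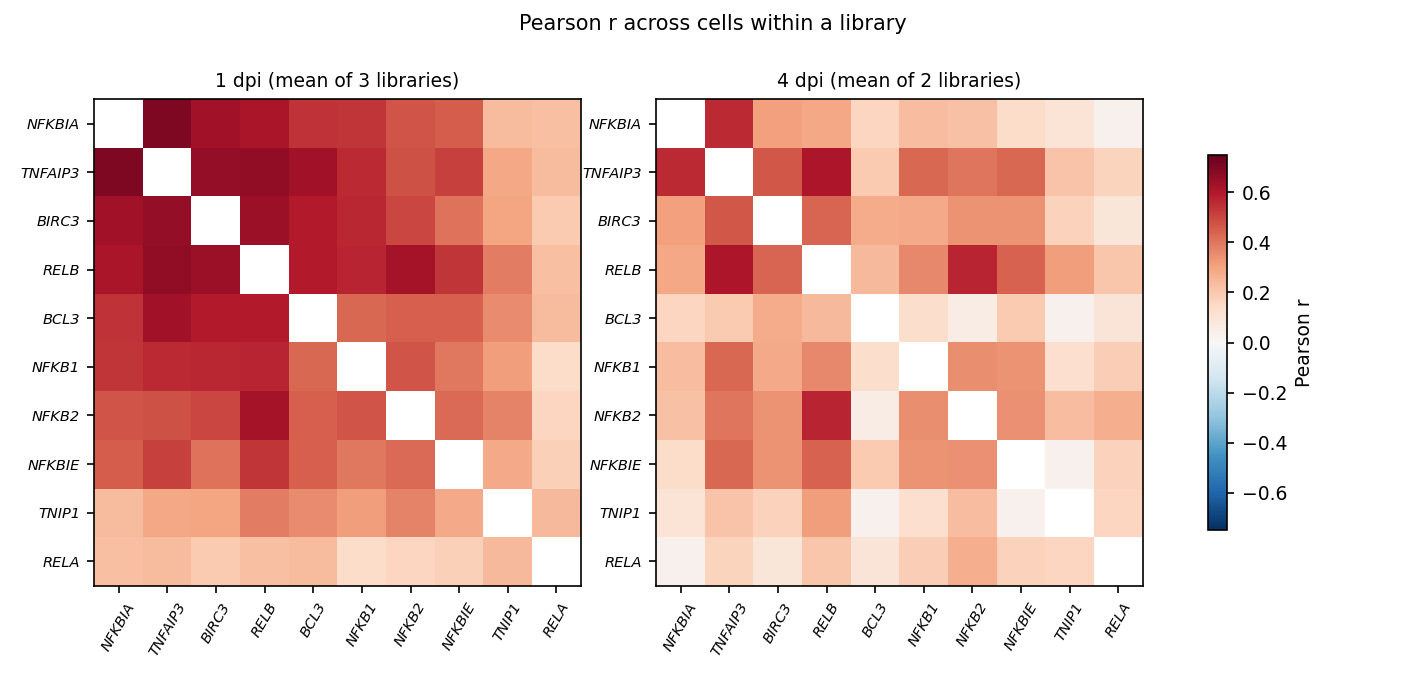
Pearson r across cells for each pair of the 10 genes, averaged over the 3 libraries of 1 dpi (left) and the 2 libraries of 4 dpi (right), on a colour scale from blue (below 0) to red. The rows of RELA and TNIP1 are pale in both panels, and BCL3 is pale at 4 dpi.

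With depth per cell, r was between -0.02 and 0.15 at the median library for the 8 genes and was 0.265 for RELA and 0.189 for TNIP1. With the share of immediate early UMIs, the median r ran from 0.264 (NFKBIE) to 0.544 (TNFAIP3) among the 8 genes and was 0.169 for RELA and 0.039 for TNIP1. With the share of mitochondrial UMIs it was below 0 for each of the 10 genes, from -0.28 (RELB) to -0.06 (NFKBIA). The counts were scaled to totals that include mitochondrial UMIs, so a larger mitochondrial share by itself lowers the scaled level of other genes. None of the correlations in this paragraph was computed over all genes.

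The genes outside the list whose cell pattern was most like NFKBIA, NFKB1 and BIRC3, the 3 with the highest levels at 1 dpi, were found by the same r over the 5 libraries. For NFKBIA they were CXCL8 (median r 0.571), CD83 (0.520), BTG2 (0.498), JUNB (0.494) and KLF10 (0.487). BTG2 and JUNB belong to the immediate early list. For NFKB1 they were IL6ST, the signal chain of interleukin-6 receptors (0.491), KLF10 (0.466), KDM7A (0.418), IRF1, an interferon-response factor (0.408), and RSRC2 (0.405). For BIRC3 they were KLF10 (0.538), CD83 (0.518), IL6ST (0.517), ELF3, an epithelial ETS factor (0.498), and NEURL3 (0.483). KLF10, a zinc finger factor of the early response to TGF-beta, was the only gene in all 3 sets.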

How the data were processed

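Single-cell RNA-seq was made by the authors with SORT-seq from 5 plates, reads were mapped with BWA to human transcripts (hg38, per the submitters' processing notes; for BWA no version is stated), and the deposited values are raw UMI counts per gene and well. Per plate 4486490 to 7631299 human UMIs were read. Spike-in rows (1.32% to 3.59% of UMIs) entered the cell filter, which was that of the study, and were then left out. The 15014 genes seen in at least 10 wells were kept.

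Counts were summed per plate, or per plate and cell class, and tested with edgeR 4.0.16 (filterByExpr, TMM, quasi-likelihood, all genes adjusted together) in R 4.3.3, with a threshold of 0.05. DESeq2 1.42.0 was an alternative. In simulated counts with known changes, 93.4% of changed genes were recovered for the time comparison over 12561 genes, and 3.14% of calls were false. For the HES5 split over 11471 genes these were 96.9% and 8.70%. The simulation used the same size of change and the same dispersion for all genes, with median fitted changes of 1.52 and 1.50 on the log2 scale. Smaller changes, like those of most of the 10 genes with time, were not simulated, so these rates do not apply to them. Thinning to 5000 UMIs used a fixed seed, and correlations used counts scaled to 10000 per cell. Sensitivity covered filters, scaling, thinning, flow cell and each plate. Sequences came from RefSeq and gene coordinates from GENCODE on hg38. The genes, lists and splits were chosen with earlier results of these data known. All 10 genes were named in every plate. Of the other lists, at most 3 called genes each way were named, those with the largest change with time, and CXCL8 was named after its values were seen. Like genes were the 5 with the highest median r.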

Additional observations from a re-analysis of the deposited data

Results flagged for a closer look

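The difference between cells with a high and a low share of immediate early UMIs changed between 1 and 4 dpi for 2 of the 10 NF-kB genes, by an interaction term fitted over 11891 genes, against 12.4% of all genes in either direction and 4.91% lower. For BCL3 the change was -1.89 on the log2 scale (edgeR adjusted p = 0.0034), with high cells above low cells in 5 of 5 libraries. BCL3 had 42 and 39 UMIs in the 4 dpi libraries. For BIRC3 it was -0.94 (edgeR adjusted p = 0.0137), again with high above low in 5 of 5 libraries.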

How the results depend on the processing

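No paired analysis was possible because the 1 dpi and 4 dpi plates share no library number. The direction held in 177 of 180 alternative values of the time comparison, 85 of 90 for HES5, 130 of 130 for the immediate early split and 108 of 120 for the mitosis split. Against 8 genes called lower at 4 dpi, 3 were called in cells with no HES5 UMI and 4 in cells below the median immediate early share (an alternative chosen after seeing the data), and 6 to 8 when 1 plate was left out. RELA was at 0.080 with a mitochondrial maximum of 15%, and TNIP1 at 0.59 in thinned cells and 0.036 in cells below the median immediate early share. NFKBIA was not called with flow cell as a term (adjusted p = 0.057). Against 1792 genes lower and 1691 higher over all genes, thinning gave 525 and 594, cells with no HES5 UMI 907 and 956, and cells below the median immediate early share 1086 lower. Leaving out 1 plate gave 1184 (without library 11) to 1500 lower and 1162 to 1441 higher. For HES5, 0 genes were called below and 4 above the median immediate early share (both chosen after seeing the data), and 8 to 9 without 1 plate. Below that median NFKBIA was at -0.73, RELA at -0.62, TNFAIP3 at -0.97 and TNIP1 at -0.25. TNIP1 was at -0.0051 without library 7 and at 0.39, then called, without library 8. In the mitosis split 0 to 2 genes were called without 1 plate, against 331 to 547 called lower over all genes. Signs turned in thinned cells for NFKBIA (0.032), NFKBIE (0.68) and NFKB2 (0.094), at 4 dpi alone for NFKB2 (0.23), TNFAIP3 (0.085) and BIRC3 (0.56), and between the extremes of each library for NFKBIA (0.17), NFKBIE (0.26), TNFAIP3 (0.38) and BIRC3 (0.27). Without 1 plate BIRC3 ran from -0.22 to 0.065 (without library 7) and NFKBIE from -0.35 to 0.085 (without library 11). The median pair correlation of 0.388 was 0.198 in thinned cells. The causes were not tested. At 4 dpi BCL3 rests on 81 UMIs, and intervals of any share cover counting error only.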
